A study of Homo sapiens with 21 samples.

Results

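A group of 9 osmoregulation genes is described here: SLC6A12, SLC5A3, SLC5A11, SLC6A6 and SLC38A2, which encode transporters of organic osmolytes, AKR1B1, which encodes an enzyme that makes one, NFAT5, which encodes the transcription factor of the tonicity response, and HSPA4L and TSC22D2, which are known as genes induced by high tonicity. These 9 of the 65065 genes in the deposited table were chosen by name, with their values at the highest dose of vesicles already known. Every comparison that uses that dose is therefore given for them without a p-value, and counts of calls there describe the 9 genes and support nothing. All 9 passed the filter on low counts, as did 19556 genes in all.

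When the fluid around a cell becomes hypertonic, water leaves and the cell shrinks. Cells first take up salt and then replace it with small organic osmolytes, chiefly betaine, myo-inositol, taurine, sorbitol and amino acids, which raise the osmotic strength of the cytoplasm without disturbing proteins. NFAT5, also called TonEBP, moves to the nucleus, binds a DNA element named TonE and raises transcription of the transporters and of aldose reductase, which makes sorbitol from glucose. The response is best known from the renal medulla, and NFAT5 also acts in immune cells and in tumour lines under other stimuli.

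The cells were HCT-116, an established human line of colorectal carcinoma grown in medium with serum depleted of exosomes. They were given extracellular vesicles (EVs) that had been isolated from serum by GlyExo-Capture, from a source labelled HCC+ or a source labelled HCC-, and the treatment note names serum of HCC patients and of healthy people. Each source was used at 1.2, 0.24 and 0.048 mg/mL, and a blank group received none, which gives 7 groups of 3 poly(A) RNA libraries. The number of serum donors per source, the length of treatment, what the blank received in place of EVs and the osmolality of the media are not stated. Separate cultures for the 3 libraries of a group are not stated, so p-values measure only the spread between libraries, which may be technical.

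Library totals ran from 31.22 to 64.01 M counts. EPCAM and KRT8, markers of epithelial cells, stood at 213 to 314 and 1770 to 2800 CPM over all libraries. Of the intestinal markers, CDX2 stood at 14.9 to 23.5 and KRT20 at 1.19 to 6.12 CPM, while CDX1, VIL1, LGALS4 and CEACAM5 stayed at or under 0.343 CPM. With HCC- at 1.2 mg/mL EPCAM, KRT8 and KRT18 fell, at -0.31, -0.27 and -0.46. KRT20 and CDX2 rose there, at 0.72 and 0.32, and CDH1, KRT19 and VIL1 were not called. KRT20 also rose with HCC+ at that dose, at 1.41. The 11 epithelial markers summed to 3290 to 3560 CPM with HCC- at 1.2 mg/mL, against 3680 to 4480 CPM in the blank. Their part in the results was not tested. CPM is a gene's count scaled to a fixed library total, here with TMM factors. Differences are log2 fold changes ± SE from edgeR's quasi-likelihood model over all 21 libraries. A gene is called where its Benjamini-Hochberg adjusted p over all tested genes was under 0.05.

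Promoter sequence was at hand for 4 of the 9 genes, as RefSeq windows on GRCh38.p14 that run from 250 bases before to 50 bases after a start site. They are shown because TonE is the element through which NFAT5 acts. Both strands were searched for TGGAAA, the core of TonE, and for the longer TonE consensus that contains it, and capitals mark the match. Of 35116 windows of the same length, 20.7% held the core and 4.92% the consensus. The upstream 250 bases are given 5′ to 3′ on the strand of the gene for SLC5A3 (chr21:34073328-34073577, plus strand), AKR1B1 (chr7:134459101-134459350, minus strand) and HSPA4L (chr4:127783273-127783522, plus strand), followed by a site of 30 bases in SLC38A2 (chr12:46372726-46372755, minus strand).
SLC5A3: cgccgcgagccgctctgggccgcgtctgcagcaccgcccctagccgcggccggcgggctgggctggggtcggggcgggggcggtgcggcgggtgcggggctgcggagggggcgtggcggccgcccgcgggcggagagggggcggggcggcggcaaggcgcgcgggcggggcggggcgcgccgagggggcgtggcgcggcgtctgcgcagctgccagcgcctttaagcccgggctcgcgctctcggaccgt
AKR1B1: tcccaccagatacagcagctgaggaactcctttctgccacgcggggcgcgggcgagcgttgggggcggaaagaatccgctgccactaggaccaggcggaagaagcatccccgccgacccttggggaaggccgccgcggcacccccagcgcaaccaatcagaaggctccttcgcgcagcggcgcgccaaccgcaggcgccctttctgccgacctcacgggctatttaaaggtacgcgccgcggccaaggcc
HSPA4L: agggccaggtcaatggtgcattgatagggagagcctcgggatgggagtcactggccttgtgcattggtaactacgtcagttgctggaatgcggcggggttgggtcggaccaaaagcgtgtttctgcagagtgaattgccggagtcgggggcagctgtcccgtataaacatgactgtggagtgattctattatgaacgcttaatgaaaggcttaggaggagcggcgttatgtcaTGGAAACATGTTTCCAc
SLC38A2: cgccttagaACGCCTTTCCAgtactgctag
HSPA4L has 3 windows, of which the one at the most downstream start site is printed. It held 2 consensus matches on opposite strands that overlap, and they begin 17 and 12 bases before that start site. Of its other windows one held the core alone and one neither motif. In SLC38A2 the match lay on the opposite strand, 27 bases after the start site, and so outside the upstream bases. The window of SLC5A3, which is also that of MRPS6, and the 2 windows of AKR1B1 held neither motif. Sequence farther from the start sites was not searched, so sites outside these windows would be missed. A match describes letters only, and no binding was measured.

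At 1.2 mg/mL the 5 transporters and AKR1B1 stood higher than in the blank with both sources, and each of these 6 genes had a higher mean with HCC- than with HCC+. NFAT5 and TSC22D2 overlapped the blank with both sources, though both were called as rising with HCC-. HSPA4L stood lower with HCC-. Of the 9, 6 were called as rising and 0 as falling with HCC+, where 15.6% of all tested genes were called as rising and 17.4% as falling. With HCC-, 8 were called as rising and 1 as falling, against 24.8% and 28.5% of all tested genes. The median log2 fold change of the 9 was 0.63 with HCC+ and 1.17 with HCC-, beside 0.01 and 0.05 over all tested genes. These counts follow from how the genes were chosen. With HCC+ the count of 6 became 4 without replicate 1 or 3 of the blank or replicate 1 of HCC+.

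**Figure D1:**
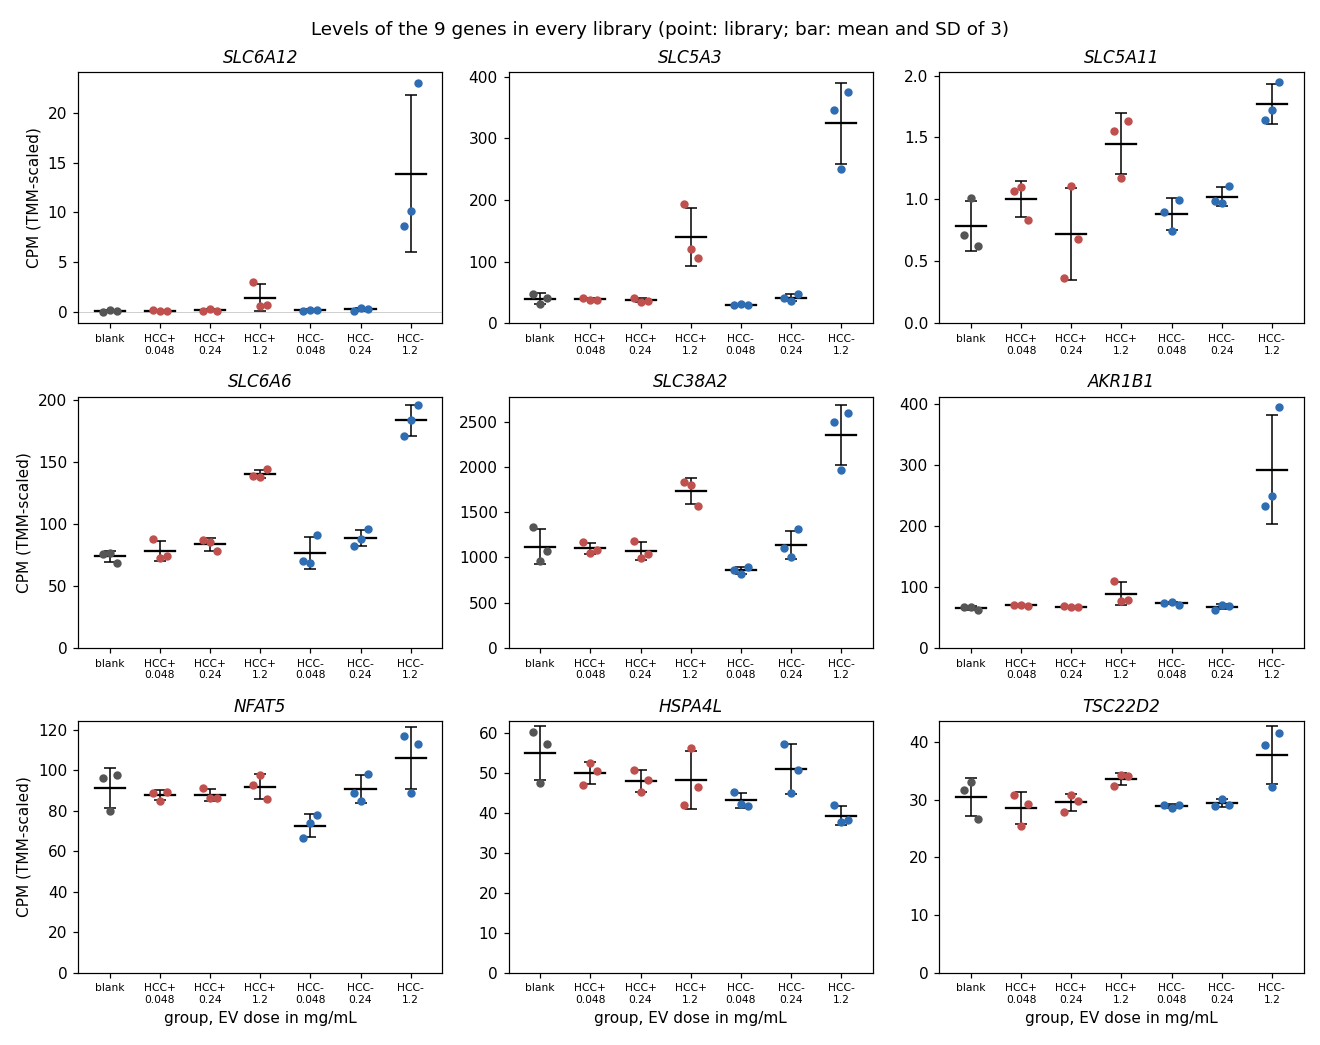
Level of each of the 9 genes in CPM (vertical axes, linear and starting at or just below 0) in the 7 groups (horizontal axes, EV dose in mg/mL). Points are libraries, and bars give the mean and SD of 3 libraries. The transporters and AKR1B1 are highest in the HCC- group at 1.2 mg/mL, and the groups at 0.24 and 0.048 mg/mL lie near the blank.

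SLC6A12 (chr12:190077-214570, minus strand) encodes BGT1, which carries betaine and GABA into the cell. It was nearly silent in the blank, with 0, 0.172 and 0.0749 CPM in the 3 libraries, which are 0, 7 and 3 counts. With HCC+ at 1.2 mg/mL the libraries stood at 2.98, 0.573 and 0.655 CPM, and with HCC- at 8.62, 10.1 and 23.0 CPM. No library of either group overlapped the blank, and no library of one source overlapped the other. The summed counts were 10 in the blank, 206 with HCC+ and 2465 with HCC-. Scaled to library size, the ratio to the blank was 15.9 with HCC+ (exact 95% interval 8.45 to 33.5) and 188 with HCC- (102 to 392), and these intervals cover counting error only. The fitted log2 fold changes were 3.89 ± 0.94 and 7.23 ± 0.81, and HCC+ minus HCC- was -3.33 ± 0.54 (-4.49 without replicate 1 of HCC+). The size depended on single libraries. The HCC+ value was 2.74 without replicate 1 of that group and 4.92 without replicate 2 of the blank, and the HCC- value was 6.66 without its replicate 3 and 8.24 without replicate 2 of the blank. In the 12 libraries at the lower doses SLC6A12 stayed between 0.0575 and 0.344 CPM.

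SLC5A3 (chr21:34073578-34106260, plus strand) encodes SMIT1, a sodium-coupled transporter of myo-inositol. Its libraries stood at 47.8, 31.5 and 40.9 CPM in the blank, at 193, 120 and 106 CPM with HCC+ at 1.2 mg/mL, and at 347, 251 and 376 CPM with HCC- at that dose. The 3 groups did not overlap, and replicate 1 was the highest of the HCC+ libraries. The log2 fold change was 1.80 ± 0.21 with HCC+ and 3.02 ± 0.22 with HCC-, which are 3.49-fold and 8.14-fold, and HCC+ minus HCC- was -1.22 ± 0.20. Without replicate 1 the HCC+ value was 1.51. The 12 libraries at lower doses lay at 29.3 to 47.1 CPM. SLC5A11 (chr16:24845841-24911628, plus strand) encodes SMIT2, the second transporter of myo-inositol, and stood far lower. It had 0.711, 1.01 and 0.624 CPM in the blank, 1.55, 1.17 and 1.63 CPM with HCC+ at 1.2 mg/mL and 1.64, 1.72 and 1.95 CPM with HCC-. Neither treated group overlapped the blank, at log2 fold changes of 0.88 ± 0.30 and 1.17 ± 0.30. Between the sources it was not called (HCC+ minus HCC- -0.29 ± 0.27, 95% interval -0.83 to 0.24).

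SLC6A6 (chr3:14402576-14489349, plus strand) encodes TauT, the taurine transporter. Its libraries stood at 76.1, 76.5 and 68.8 CPM in the blank, at 139, 138 and 144 CPM with HCC+ and at 171, 184 and 196 CPM with HCC-. The groups did not overlap, with log2 fold changes of 0.93 ± 0.09 and 1.32 ± 0.09 and a difference of -0.39 ± 0.09. SLC38A2 (chr12:46358188-46372773, minus strand) encodes SNAT2, which takes up small neutral amino acids. It had 1330, 957 and 1070 CPM in the blank, 1830, 1800 and 1570 CPM with HCC+ and 2490, 1970 and 2590 CPM with HCC-. All 3 groups were again apart, by 0.63 ± 0.12 and 1.07 ± 0.12 on the log2 scale, and HCC+ minus HCC- was -0.44 ± 0.12. After removal of GC and length trends per library, the HCC- value of SLC38A2 was 1.46.

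AKR1B1 (chr7:134442356-134459284, minus strand) encodes aldose reductase. It stood at 66.6, 67.6 and 61.4 CPM in the blank, at 110, 77.5 and 77.9 CPM with HCC+ at 1.2 mg/mL and at 233, 248 and 395 CPM with HCC-. The HCC+ libraries lay just above the blank apart from replicate 1, while the lowest HCC- library lay above all of them. The log2 fold change was 0.44 ± 0.15 with HCC+ and 2.16 ± 0.16 with HCC-, with a difference of -1.72 ± 0.16. Without replicate 1 the HCC+ value fell to 0.26, and without replicate 3 the HCC- value was 1.89. The order of the genes thus differed between the sources. With HCC- AKR1B1 came after SLC6A12 and SLC5A3, and with HCC+ it had the smallest change of the 6.

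NFAT5 (chr16:69565094-69704666, plus strand), the transcription factor itself, had 96.4, 79.8 and 97.9 CPM in the blank, 92.6, 97.7 and 85.7 CPM with HCC+ at 1.2 mg/mL and 117, 88.6 and 113 CPM with HCC-. All 3 groups overlapped. Its log2 fold change was 0.01 ± 0.09 with HCC+ (95% interval -0.16 to 0.18) and 0.22 ± 0.09 with HCC-. The HCC- value was 0.12 without replicate 2 of the blank and 0.34 without replicate 2 of HCC-, so its size moved with single libraries. It also moved with the scaling, at 0.50 with total counts alone and 0.33 with GC and length trends removed. The activity of NFAT5 protein is also set by its place in the cell and its phosphorylation, neither of which RNA counts measure.

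HSPA4L (chr4:127781821-127840733, plus strand) encodes a chaperone of the HSP110 family that was first described as an osmotic stress protein. It had 60.2, 47.4 and 57.3 CPM in the blank, 41.9, 56.1 and 46.4 CPM with HCC+ at 1.2 mg/mL and 42.0, 37.7 and 38.2 CPM with HCC-. The HCC+ libraries overlapped the blank and the HCC- libraries all lay below it, at log2 fold changes of -0.19 ± 0.10 and -0.48 ± 0.10. The size of the HCC- value depended on the scaling, at -0.20 with total counts alone and -0.23 with GC and length trends removed. TSC22D2 (chr3:150408335-150466431, plus strand), a member of the TSC22 family of leucine zipper proteins, had 31.7, 33.1 and 26.7 CPM in the blank, 32.4, 34.3 and 34.2 CPM with HCC+ and 39.6, 32.2 and 41.7 CPM with HCC-. The libraries of both groups overlapped the blank, and the log2 fold changes were 0.14 ± 0.09 and 0.31 ± 0.09. The HCC- value of TSC22D2 was 0.60 with total counts alone and 0.44 with GC and length trends removed. Overlapping consensus matches lie before 1 of the 3 start sites of HSPA4L, and their bearing on its level was not tested.

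In the comparison of the sources at 1.2 mg/mL, 5 of the 9 genes were called as lower with HCC+ and 1, HSPA4L, as higher, where 12.7% and 22.6% of all tested genes were called in these directions. With total counts alone the split was 7 lower and 0 higher. Over all tested genes 4572 were then called as lower and 2342 as higher, in place of 2490 and 4411. That scaling also shifted all genes, from a median log2 fold change of 0.051 to 0.332 for HCC- against the blank and from 0.013 to 0.133 for HCC+. Over all genes 4844 rose and 5574 fell with HCC- at 1.2 mg/mL, against 8128 and 3097 with total counts alone, and 3046 rose and 3398 fell with HCC+, against 4657 and 2069. For 6 genes every HCC+ library was lower than every HCC- library, and the share of all tested genes with that pattern was not worked out. The 2 comparisons with the blank share the same 3 blank libraries, so the likeness of their values is no independent support. Against the blank, 6 genes were higher in every library with HCC+ and 6 with HCC-, shares that were 20.3% and 28.4% over all tested genes.

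**Figure D2:**
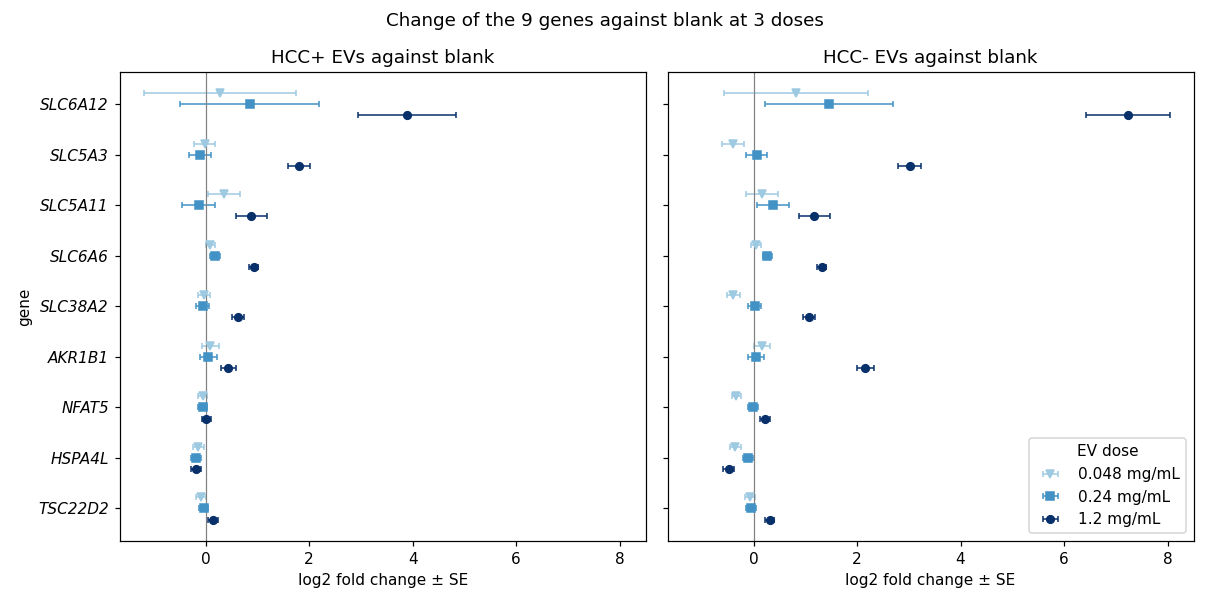
Log2 fold change against the blank (horizontal axis, ± SE) of the 9 genes with HCC+ EVs (left) and HCC- EVs (right) at 3 doses, told apart by marker. The values at 1.2 mg/mL run from -0.19 to 3.89 with HCC+ and from -0.48 to 7.23 with HCC-, and those at lower doses lie near 0 except for SLC6A12, whose errors are wide.

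For the 5 transporters and AKR1B1 most of the rise in mean CPM lay between 0.24 and 1.2 mg/mL. Smaller rises by 0.24 mg/mL were not settled for SLC6A6 and SLC6A12, whose values at that dose are given below. From 0.24 to 1.2 mg/mL, 5 genes were called as rising and 0 as falling with HCC+ (13.7% and 15.5% of all tested genes), and 8 and 1 with HCC- (23.9% and 28.0%). SLC5A3 differed by 1.91 ± 0.21 and 2.97 ± 0.22 over that step, and AKR1B1 by 0.39 ± 0.15 and 2.12 ± 0.16. The step of AKR1B1 with HCC+ was not called.

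Comparisons among the blank, 0.24 and 0.048 mg/mL set no library of the highest dose against another, and the genes were tested there. The libraries at 1.2 mg/mL still share in the filter and the estimate of spread. At 0.24 mg/mL edgeR called 0 of the 9 against the blank with HCC+ (0.00511% of all tested genes) or HCC- (0.0%), and 0 between the sources (0.0%). SLC6A6 had an unadjusted p under 0.05 with each source, at 0.18 ± 0.09 with HCC+ (edgeR, adjusted p = 0.808) and 0.27 ± 0.09 with HCC- (edgeR, adjusted p = 0.998). Its libraries at that dose, 87.3, 85.4 and 77.9 CPM with HCC+ and 82.4, 88.0 and 95.7 CPM with HCC-, all lay above the blank. For SLC5A3 the 95% interval of the difference from the blank at 0.24 mg/mL was -0.52 to 0.31 with HCC+ and -0.36 to 0.47 with HCC-, and for AKR1B1 -0.25 to 0.35 and -0.26 to 0.35. The values at 1.2 mg/mL lie outside these intervals, a reading that leaves out the error of those values. That of AKR1B1 with HCC+ was 0.44, and its own 95% interval, 0.14 to 0.74, overlaps the one at 0.24 mg/mL. For SLC6A12 the intervals were -1.78 to 3.49 and -0.98 to 3.89, so that the fit does not resolve changes of several fold. The summed counts at 0.24 mg/mL were 24 with HCC+ and 36 with HCC-, ratios to the blank of 1.83 (exact 95% interval 0.841 to 4.28) and 2.84 (1.38 to 6.43), which cover counting error only and not the spread between libraries. HCC+ at 0.048 mg/mL gave 0 calls against the blank (0.0%), with 0 genes at an unadjusted p under 0.05, and so did the step from 0.048 to 0.24 mg/mL with HCC+ (0.0%).

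With HCC- at 0.048 mg/mL, 3 of the 9 genes fell and 0 rose, where 8.16% of all tested genes fell and 8.28% rose. SLC38A2, at 855, 816 and 897 CPM, was lower by a log2 fold change of -0.39 ± 0.12 (edgeR, adjusted p = 0.0355). NFAT5, at 66.5, 73.9 and 77.7 CPM, differed by -0.33 ± 0.09 (edgeR, adjusted p = 0.0136). HSPA4L, at 45.3, 42.3 and 41.8 CPM, differed by -0.35 ± 0.10 (edgeR, adjusted p = 0.0167). In all 3 genes every treated library lay below every blank library, but how many of all tested genes did so was not counted. None of these calls held with GC and length trends removed, where the values were -0.10, -0.10 and -0.08, and over all genes the calls then went from 3216 to 30. The 3 transcripts have GC contents of 38.8%, 40.6% and 39.3%. The count of 3 calls also became 0 without replicate 1 or replicate 3 of the blank or replicate 2 of the treated group, and 1 without replicate 1 or 3 of the treated group.

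From 0.048 to 0.24 mg/mL with HCC-, NFAT5 rose by 0.32 ± 0.09 (edgeR, adjusted p = 0.026) and SLC38A2 by 0.41 ± 0.12 (edgeR, adjusted p = 0.0435). These are 2 of the 9 genes, with 0 falling, where 3.86% of all tested genes rose and 4.86% fell. The same HCC- libraries at 0.048 mg/mL enter both comparisons. With GC and length trends removed the values were 0.11 and 0.16, and neither was called. With only the groups compared in the fit the count was 4. The count was also 0 without replicate 1 or 2 at 0.048 mg/mL or replicate 1 or 3 at 0.24 mg/mL. Between the sources at 0.048 mg/mL edgeR called 0 of the 9 (3.54% of all tested genes), while 3 had an unadjusted p under 0.05, and 4 were called with only the groups compared in the fit. The smallest adjusted p was 0.0647, for NFAT5, which was higher with HCC+ by 0.27 ± 0.09.

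Per kilobase of exon, as FPKM, the order of the genes in the blank was SLC38A2 at 172 ± 29.4 (SD, n = 3), AKR1B1 at 17.8 ± 0.918, SLC6A6 at 8.94 ± 0.527, NFAT5 at 5.57 ± 0.615, HSPA4L at 4.81 ± 0.590, SLC5A3 at 3.46 ± 0.711, TSC22D2 at 2.61 ± 0.291, SLC5A11 at 0.229 ± 0.0592 and SLC6A12 at 0.0156 ± 0.0164. NFAT5 and HSPA4L, HSPA4L and SLC5A3, and SLC5A3 and TSC22D2 were neighbours whose libraries overlapped or met. With HCC- at 1.2 mg/mL SLC5A3 had moved up to the third level, at 28.1 ± 5.65 FPKM, and SLC6A12, at 2.63 ± 1.5 FPKM, lay above SLC5A11, at 0.519 ± 0.0472 FPKM. SLC5A3 then overlapped SLC6A6, at 22.3 ± 1.51 FPKM. SLC38A2 kept the highest level, at 361 ± 51.3 FPKM, and AKR1B1 reached 79.9 ± 24.5 FPKM. These lengths are those of all exons in the deposited table.

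Within a group, 1 library was the highest for several genes together. Replicate 1 of HCC+ at 1.2 mg/mL was the highest of its group for 4 genes, SLC6A12, SLC5A3, SLC38A2 and AKR1B1. For SLC38A2 its lead was small, at 1830 against 1800 CPM. Replicate 3 of HCC- at that dose was the highest for 7, all but NFAT5 and HSPA4L. Replicate 2 of the blank was the highest for 5. These counts were not set against all tested genes. Over the 21 libraries, log2 CPM of SLC5A3 had a Pearson r of 0.97 with SLC38A2, 0.95 with SLC6A6, 0.91 with SLC6A12 and 0.89 with AKR1B1. The r of SLC5A3 was 0.68 with NFAT5 and -0.47 with HSPA4L. These describe a pattern that the 2 groups at 1.2 mg/mL set together, since the libraries share treatment, depth and scaling.

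SLC5A3 begins at the same base as MRPS6, which encodes a protein of the mitochondrial ribosome, and 265 bases of their exons are shared on the same strand, so that reads there may not be told apart. MRPS6 stood at 24.9, 21.9 and 25.6 CPM in the blank, at 47.5, 36.5 and 37.3 CPM with HCC+ at 1.2 mg/mL and at 68.9, 69.5 and 104 CPM with HCC-. It rose by 0.74 ± 0.12 with HCC+ (edgeR, adjusted p = 1.08e-05) and 1.74 ± 0.12 with HCC- (edgeR, adjusted p = 1.42e-13). The change was smaller than that of SLC5A3. The ratio of SLC5A3 to MRPS6 counts was 1.65 ± 0.245 (SD, n = 3) in the blank, 3.4 ± 0.615 with HCC+ and 4.09 ± 0.816 with HCC- at 1.2 mg/mL. At the lower doses it was between 1.58 and 1.78.

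SLC6A13, which lies beside SLC6A12 on the same strand and encodes the related transporter GAT2, had few counts. It stood at 0.135, 0.0492 and 0.499 CPM in the blank and at 1.32, 1.11 and 1.08 CPM with HCC- at 1.2 mg/mL, a rise of 2.32 ± 0.56 (edgeR, adjusted p = 0.000753). That value was 3.70 without replicate 3 of the blank and 1.81 without replicate 2. With HCC+ it was 1.00 ± 0.58 (edgeR, adjusted p = 0.194), and 2.39 (adjusted p = 0.0116) without replicate 3 of the blank. Replicate 3, the highest HCC- library for SLC6A12, was the lowest of the 3 for SLC6A13. GRIP2 overlaps SLC6A6 by 243 exonic bases on the opposite strand and held 960 counts in all libraries together. At 1.2 mg/mL it rose by 1.55 ± 0.42 with HCC+ and 1.62 ± 0.42 with HCC- (edgeR, adjusted p = 0.00476 and 0.00159). Its mean was 0.509 CPM in the blank. Whether counting used strand is not given in the sources used here.

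**Figure D3:**
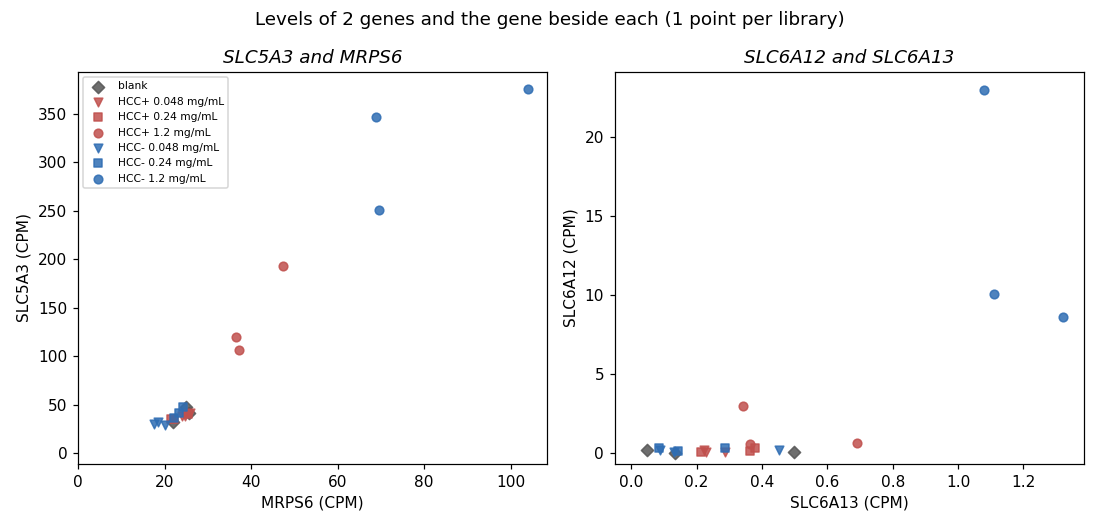
CPM of SLC5A3 against MRPS6 (left) and of SLC6A12 against SLC6A13 (right), with 1 point for each of the 21 libraries. Both axes are linear, colour gives the source and the marker gives the dose. SLC5A3 and MRPS6 are both highest in the HCC- libraries at 1.2 mg/mL, and SLC6A12 spans 8.62 to 23.0 CPM there while SLC6A13 lies at 1.08 to 1.32 CPM.

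Other genes of osmoregulation came from 5 lists written from general knowledge with earlier results of these data known, so that their p-values at 1.2 mg/mL are no independent support. The lists hold 101 genes without the 9, of which 89 were tested. At 1.2 mg/mL 31 rose and 14 fell with HCC+, and 41 rose and 25 fell with HCC-. Over all tested genes 15.6% rose and 17.4% fell with HCC+, and 24.8% and 28.5% with HCC-, and the counts of each list below stand beside the same shares. With total counts alone these splits were 41 to 8 and 53 to 13, so the balance of direction depends on the scaling. The median log2 fold change of the 89 was 0.15 with HCC+ and 0.21 with HCC-, against 0.01 and 0.05 over all tested genes. In the comparison of sources 19 were higher and 21 lower with HCC+, where 22.6% and 12.7% of all tested genes were. With total counts alone 12 were higher and 35 lower, and over all tested genes 2342 were higher and 4572 lower. Genes with the largest called changes of each list are named below.

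Among 21 tested genes of organic osmolyte transport and metabolism 6 rose and 6 fell with HCC+, and 6 rose and 8 fell with HCC- (9 to 3 and 9 to 6 with total counts alone). PNPLA6, a phospholipase that yields the osmolyte glycerophosphocholine, rose by 0.68 ± 0.08 and 0.76 ± 0.08 (edgeR, adjusted p = 6e-08 and 1.03e-09). GDPD5 and GPCPD1, which both break glycerophosphocholine down, moved apart, GDPD5 at 0.53 and 0.52 and GPCPD1 at -0.75 and -0.78. ISYNA1, which makes the precursor of myo-inositol, rose by 0.41 ± 0.10 with HCC+ and 0.89 ± 0.10 with HCC-. It was lower with HCC+ than with HCC- by 0.48 on the log2 scale (-0.48 ± 0.10, edgeR, adjusted p = 0.000331). SORD, which turns sorbitol into fructose, fell by 0.81 on the log2 scale with HCC-, from 180 to 103 CPM. It also fell with HCC+, at -0.24 ± 0.06, and was higher with HCC+ than with HCC- by 0.57 ± 0.06. CHDH and ALDH7A1, which act in the making of betaine from choline, fell with HCC-, at -0.61 ± 0.10 and -0.64 ± 0.06, and ALDH7A1 also fell with HCC+, at -0.35 ± 0.06. CHDH was not called with HCC+ (-0.03 ± 0.09). SLC44A2, a choline transporter-like protein, rose by 0.58 ± 0.06 with HCC+ and 0.23 ± 0.06 with HCC-. IMPA2, which frees myo-inositol from its phosphate, rose by 0.34 ± 0.08 with HCC+ and was not called with HCC- (-0.15 ± 0.08), and the difference between the sources was 0.49 ± 0.07. SLC38A1, a glutamine transporter of the family of SLC38A2, fell with both sources, at -0.49 ± 0.07 and -0.70 ± 0.07. So the 2 transporters of that family differed in direction, and this held with each scaling tried. SLC6A9, the glycine transporter GlyT1, fell with HCC+ (-0.31 ± 0.10) and rose with HCC- (0.39 ± 0.10).

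The list of ion transport and channels of cell volume control had 12 of 26 genes rising and 1 falling with HCC+, and 16 rising and 3 falling with HCC- (15 to 1 and 19 to 0 with total counts alone). AQP3, a channel for water and glycerol, went from 12.7 CPM in the blank to 50.9 CPM with HCC+ and 98.1 CPM with HCC-, at 2.01 ± 0.22 and 2.96 ± 0.22 (edgeR, adjusted p = 1.85e-06 and 3.5e-09). Transporters of chloride with potassium followed at smaller sizes. SLC12A2, the NKCC1 cotransporter that brings salt in, rose by 0.44 ± 0.09 with HCC+ and 0.43 ± 0.09 with HCC-. SLC12A4 rose by 0.54 ± 0.09 and 0.35 ± 0.09. LRRC8A, the obligatory subunit of the volume-regulated anion channel, rose by 0.44 ± 0.07 with HCC+ and 0.79 ± 0.07 with HCC- (edgeR, adjusted p = 2.15e-05 and 1.1e-10). Its partner subunits differed among themselves. LRRC8B and LRRC8C fell, at -0.36 and -0.43 with HCC- and were not called with total counts alone, LRRC8D rose by 0.28 ± 0.09 (edgeR, adjusted p = 0.0117), and LRRC8E was not called (0.33 ± 0.21). LRRC8D was lower with HCC+ than with HCC-, at -0.46 ± 0.09. With HCC+ against the blank LRRC8B fell, at -0.45 ± 0.10, and LRRC8C, LRRC8D and LRRC8E were not called. The kinase OXSR1, which acts on chloride cotransporters, was at -0.26 ± 0.07 with HCC-, a call that was lost with total counts alone. No gene of the list was called as higher with HCC+ than with HCC-, and 5 were called as lower (12 with total counts alone), among them AQP3 at -0.95 ± 0.20 (edgeR, adjusted p = 0.00122).

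Among 18 regulators of NFAT5, 4 rose and 5 fell with HCC+, and 5 rose and 8 fell with HCC- (6 to 3 and 8 to 6 with total counts alone). AKAP13, also known as BRX and an activator of NFAT5 transcription, rose by 0.36 ± 0.06 and 0.59 ± 0.06. ATM, a kinase that activates NFAT5, rose by 0.47 ± 0.08 with HCC-, and PTPN6, a phosphatase that restrains it, rose by 0.34 and 0.53. XPOT and NUP88, which bear on transport of NFAT5 through the nuclear pore, fell with HCC-, at -0.76 ± 0.07 and -0.77 ± 0.06. Both also fell with HCC+, at -0.65 ± 0.07 and -0.24 ± 0.06. RUVBL2, a chaperone of NFAT5 import, fell, at -0.43 ± 0.08 and -0.80 ± 0.08, and the kinase MAP3K3 rose with HCC+ by 0.34 ± 0.08. The kinases FYN and ABL1 were lower with HCC+ than with HCC-, at -0.25 and -0.24. The call of FYN was lost without replicate 2 or 3 of HCC+, and that of ABL1 without replicate 3 of HCC-. DHX9 and PARP1, which lower the activity of NFAT5, were both higher with HCC+ than with HCC-, by 0.46 ± 0.06 and 0.39 ± 0.05 (edgeR, adjusted p = 1.05e-07 and 5e-07). The list thus holds activators and inhibitors that moved in the same direction.

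Of 18 other genes known to be induced by high tonicity 12 were tested, and 3 rose and 1 fell with HCC+, and 7 rose and 3 fell with HCC- (4 to 0 and 8 to 1 with total counts alone). SGK1, a kinase that activates sodium transport, went from 4.04 to 9.24 CPM with HCC+ and 14.2 CPM with HCC-, at 1.19 ± 0.16 and 1.81 ± 0.16. S100A4, a calcium-binding protein, rose by 1.29 ± 0.13 with each source. DUSP1, a phosphatase of MAP kinases, rose by 0.44 ± 0.12 and 0.54 ± 0.12, and GADD45B, a stress gene, was lower with HCC+ than with HCC-, at -0.50 ± 0.14. The chaperones HSPB1 and DNAJB1 fell with HCC-, at -0.41 and -0.43, and with total counts alone HSPB1 was not called. HSPA1B, whose near-identical copy HSPA1A shares its reads so that its counts are uncertain, was at -0.28 and -0.18. Its HCC+ call was lost with total counts alone. Its HCC- call was lost with DESeq2, with RLE size factors, with only the groups compared and without replicate 2 of the blank. The genes AQP2, SLC14A2, LTB, TNF, CCL2 and VEGFC had too few counts to be tested, with at most 8 in any library.

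Of 12 tested relatives of the 9 genes 6 rose and 1 fell with HCC+, and 7 rose and 3 fell with HCC- (7 to 1 and 9 to 0 with total counts alone). NFATC4, a calcium-regulated member of the NFAT family, rose from 2.2 to 6.31 and 7.85 CPM, by 1.51 ± 0.18 and 1.83 ± 0.18. TSC22D4 rose by 1.06 ± 0.10 and 1.37 ± 0.10 (edgeR, adjusted p = 1.96e-09 and 7.89e-13). TSC22D3, known as the glucocorticoid-induced GILZ, rose by 1.35 ± 0.12 with HCC-, to 35.6 CPM, and was not called with HCC+ (-0.07 ± 0.13). The difference between the sources was -1.42 ± 0.12. NFATC1 rose by 0.44 ± 0.10 and 0.36 ± 0.10. SLC5A6, a vitamin transporter, fell, at -0.62 ± 0.07 and -0.35 ± 0.07, and with total counts alone the HCC- fall was not called. AKR1A1, aldehyde reductase, was at -0.21 ± 0.07 with HCC-, and its sign turned with total counts alone. HSPA4, the closest relative of HSPA4L, fell, at -0.31 ± 0.06 with HCC-, a call that was lost with total counts alone and with GC and length trends removed. AKR1B10, a reductase close in sequence to AKR1B1 and named here after its values were seen, rose by 1.56 ± 0.34 and 3.19 ± 0.33, at 0.530 CPM in the blank and 4.74 CPM with HCC-.

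**Figure D4:**
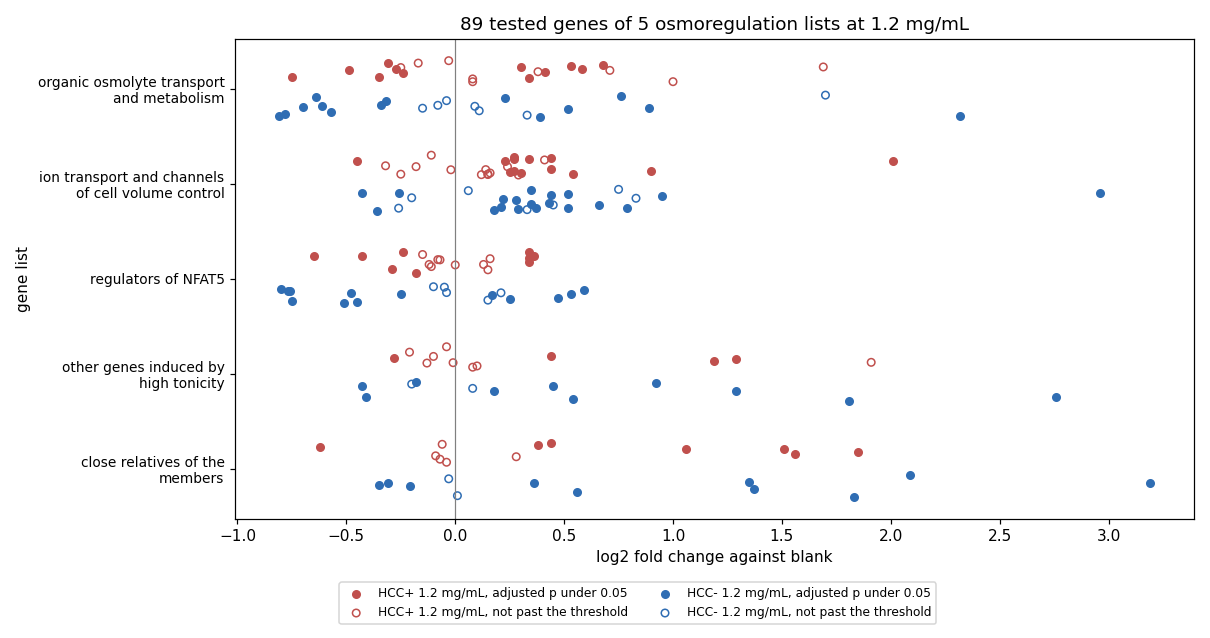
Log2 fold change against the blank at 1.2 mg/mL (horizontal axis) of 89 tested genes, by list (vertical axis). Red points are HCC+ and blue points HCC-, filled where the adjusted p was under 0.05, and the vertical scatter within a row has no meaning. AQP3 at 2.01 and 2.96 leads the ion transport list, in which most called genes lie to the right of 0.

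At lower doses edgeR called 0 of the 89 genes at 0.24 mg/mL with either source and 0 with HCC+ at 0.048 mg/mL. With HCC- at 0.048 mg/mL 15 rose and 9 fell, and 9 rose and 9 fell from there to 0.24 mg/mL, where 8.28% and 8.16%, and 3.86% and 4.86%, of all tested genes did. With GC and length trends removed the calls over all genes went from 3216 to 30 and from 1704 to 85.

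Markers of other cells were low in all libraries apart from COL1A1, which stood at 14.2 to 34.1 CPM, and some moved with the dose. Of 13 blood and liver markers 5 were tested, PPBP, PF4, S100A8 and S100A9 were at 0 in all libraries, and the summed level of the 13 was 2.06 to 2.58 CPM in the blank, 3.80 to 5.05 CPM with HCC+ and 4.59 to 6.35 CPM with HCC- at 1.2 mg/mL. CD14 and LYZ, markers of monocytes, rose with both sources, by 1.97 and 3.51 with HCC+ and 3.43 and 5.13 with HCC-, to at most 1.95 and 0.761 CPM, while PTPRC, the leukocyte marker, stayed at or under 0.0776 CPM. The 4 endothelial and fibroblast markers summed to 14.7 to 18.3 CPM in the blank, 24.2 to 33.9 CPM with HCC+ and 35.7 to 40.7 CPM with HCC-, with PECAM1, VWF and COL1A1 rising and COL1A2 at or under 0.0354 CPM. Their part in the results was not tested. In bulk RNA a change in the number of cells of a kind and a change in RNA per cell cannot be told apart.

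Over the 21 libraries, the genes whose log2 CPM was most like that of SLC6A12 were CLDN4 (Pearson r = 0.964), FBXO44 and TRIO, and for SLC5A3 they were DOCK4 (r = 0.986), GOLGB1 and H1-2. MYH15 led for SLC6A6 (r = 0.985), MTUS1 for SLC38A2 (r = 0.992), HEXIM1 for AKR1B1 (r = 0.980) and ZNF446 for SLC5A11 (r = 0.884). For NFAT5 the first was RICTOR (r = 0.942), for HSPA4L VAMP7 (r = 0.955) and for TSC22D2 THBS1 (r = 0.909). These are descriptions over libraries that share treatments.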

How the data were processed

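Poly(A) RNA of HCT-116 cells was sequenced in 21 libraries, 3 in each of 7 groups, after RNeasy extraction and NEBNext Ultra II preparation, per the labels' protocols. The values are raw read counts per gene as deposited by the authors in 1 table. Cutadapt 3.4, HISAT2 2.2.1, featureCounts 2.0.1 and GRCh38 are named in the submitters' processing notes, which give no strand setting. Of 65065 genes, 27406 had 0 counts in every library.

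From these counts, edgeR 4.0.16 (R 4.3.3, limma 3.58.1) was fitted with filterByExpr, TMM factors, 1 mean per group, robust quasi-likelihood and 14 residual degrees of freedom. The 19556 tested genes held 99.96% of counts. Standard errors are the log2 fold change divided by the square root of F, and 95% intervals are normal ones on these errors. The log2 CPM values behind the correlations used a prior count of 2. FPKM used the length of all exons. The procedure was tested on simulated data. Alternatives were RLE size factors, total counts alone, no filter on low counts, DESeq2 1.42.0, a replicate block, only the groups compared, GC and length trends removed by splines with 4 degrees of freedom (GC known for 99.7% of tested genes), and each library left out.

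The 9 genes and the lists were chosen with earlier results of these data known. Named were all 9, the genes that share exons with one of them or lie beside SLC6A12 or SLC5A3, the genes most like each in Pearson r, and, for each list, comparison at 1.2 mg/mL and direction, up to the 3 called genes with the largest change among those with a mean log2 CPM of at least 1. AKR1B10 and the markers are outside that rule. Tables and figures were made with Python 3.11.15, pandas 2.3.3 and matplotlib 3.10.9. A gene that the rule names is not reported here.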

Additional observations from a re-analysis of the deposited data

Results flagged for a closer look

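SLC6A9, which encodes the glycine transporter GlyT1, moved in opposite directions with the 2 sources at 1.2 mg/mL. Against the blank it differed by -0.31 (edgeR, adjusted p = 0.0129) with HCC+ and by 0.39 (edgeR, adjusted p = 0.00107) with HCC-. The difference between the sources was itself tested and came to -0.70 ± 0.10 (edgeR, adjusted p = 8.61e-07), with group means of 13.5 and 21.8 CPM. SLC38A2 was lower than the blank in every library with HCC- at 0.048 mg/mL (-0.39) and higher in every library with HCC- at 1.2 mg/mL (1.07). That difference between doses was not tested, and the lower value was -0.10 with GC and length trends removed.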

How the results depend on the processing

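With HCC- at 0.048 mg/mL, the 3 calls among the 9 genes became 0 with GC and length trends removed, and 0 to 3 when 1 library was left out. From 0.048 to 0.24 mg/mL with HCC-, the 2 calls became 1 with no filter on low counts, 0 with GC and length trends removed, 4 with only the groups compared, and 0 to 3 with 1 library left out. Between the sources at 0.048 mg/mL, the 0 calls became 1 with no filter, 4 with only the groups compared and 1 with DESeq2. The cause was not tested.

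With a replicate block that last count was 2. Deviations from the group means correlated over 0.1 in 1 of 63 same-numbered pairs of libraries. Pairs with different numbers were not set beside them, so effects shared by a replicate number were not settled. With HCC+ at 1.2 mg/mL the block gave 5 calls among the 9 in place of 6.

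No called value of the 9 genes changed sign in any alternative. Values near 0 did with 1 library left out, NFAT5 with HCC+ at 1.2 mg/mL (0.01) running from -0.08 to 0.06 and HSPA4L from 0.24 to 1.2 mg/mL with HCC+ from -0.13 to 0.10. Of the named other genes, 4 did with HCC- at 1.2 mg/mL. With total counts alone OXSR1 was at 0.02 in place of -0.26, HSPA1B at 0.10 in place of -0.18 and AKR1A1 at 0.07 in place of -0.21. With GC and length trends removed HSPA4 was at 0.00 in place of -0.31. Depth limits SLC6A12, with 10 counts in the blank libraries together.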
